A study of Mus musculus with 40 samples.

Results

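The 42 genes described here encode nucleolar proteins and factors that make ribosomes. They were chosen by symbol, with earlier results of these data known. All 42 were found in each of 3 count tables from mouse embryonic stem cells of the line E14tg2a, among 55276, 55291 and 55276 genes, and all 42 passed the filter on low counts together with 21193, 20161 and 20612 genes in all. RNA was sequenced from 34 libraries of cells grown in serum with leukaemia inhibitory factor. In the genotype table every group has 2 libraries. Its control is unmodified E14tg2a (WT), and CtbpDKO cells are labelled as lacking Ctbp1 and Ctbp2, the genes of the corepressor CtBP. DuxKO cells lack Dux, Ctbp-Dux TKO cells lack Dux as well as both Ctbp genes, Dppa2KO cells are labelled as lacking Dppa2, and DKO-Dppa2 cells as lacking Dppa2 and both Ctbp genes. In the Pramel7 table WT has 4 libraries, numbered 3 to 6, and each other group 2: DuxKO, cells that overexpress Pramel7 (P7OE), DuxKO cells that do so (DuxKO-P7OE), and cells labelled as lacking Pramel7 (P7KO). The time course holds 2 libraries each of CtbpDKO cells at days 0, 3, 9, 12 and 18, under a label with the word Dox that does not say what was given. The labels do not say whether a line is 1 clone or whether paired libraries came from separate cultures, so p-values measure only the spread between these libraries.

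Ribosomes are assembled in the nucleolus, where RNA polymerase I copies the ribosomal DNA into a long precursor RNA. Small nucleolar RNA-protein particles (snoRNPs) modify that precursor, the small subunit processome folds and cuts its first part, and other factors complete the small (40S) and large (60S) subunits before export. In embryonic stem cells the nucleolus is also known as a site that holds the Dux locus in a silent state, with nucleolin and Trim28 among the proteins involved.

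The promoters of the 42 genes were compared for short motifs, because many of the genes moved in the same direction in several comparisons below. RefSeq promoters of assembly GRCm38.p6, each 300 bases long with 250 before and 50 after the start, matched 36 of the 42 symbols, with 45 promoters among them. The letters CCGGAAGT, a core bound by ETS family factors, were found on either strand in promoters of 7 of the 36 genes (19.4%), against 4.31% of all 27025 genes with a promoter and 7.91% of the 12523 that were also tested in the genotype table. CACGTG, the E-box bound by Myc proteins among others, was found in 7 of 36 (19.4%), against 8.09% and 11.1%. In Utp4, Utp20, Wdr43, Pes1 and Mybbp1a the only E-box began at position 3 to 41 after the start, and in Rrn3 and Nop2 it lay before the start. The NRF1 core GCGCATGCG was found in 2 of 36 (5.56%, against 1.95% and 3.62%), CCAAT, the box bound by NF-Y, in 13 of 36 (36.1%, against 41.1% and 42.9%), and the YY1 letters AAGATGGCG in 0 of 36 (against 1.64% and 3.05%). Both strands were searched, and none of the 5 motifs is contained in another. The median GC content was 57.7% in the 45 promoters, 60% in those of tested genes and 52.7% in all. These counts describe letters in a window and say nothing of binding.

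The 90 bases before the start are shown for the 7 genes with the ETS letters and for Nop2, with CCGGAAGT or its reverse complement and CACGTG in capitals, because these are the 2 motifs whose share was higher in the 36 genes than in tested genes by the widest margins.
Polr1c, chr17:46248046-46248135, minus strand: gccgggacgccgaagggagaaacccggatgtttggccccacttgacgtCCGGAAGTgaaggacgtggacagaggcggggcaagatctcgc
Rrn3, chr16:13780609-13780698, plus strand: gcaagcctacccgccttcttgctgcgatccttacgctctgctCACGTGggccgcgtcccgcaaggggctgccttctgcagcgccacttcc
Taf1c, chr8:119605207-119605296, minus strand: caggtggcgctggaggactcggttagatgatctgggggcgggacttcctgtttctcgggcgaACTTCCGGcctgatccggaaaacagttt
Gar1, chr3:129831397-129831486, minus strand: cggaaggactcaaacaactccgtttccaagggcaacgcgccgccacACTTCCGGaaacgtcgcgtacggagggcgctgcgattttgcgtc
Nhp2, chr11:51619683-51619772, plus strand: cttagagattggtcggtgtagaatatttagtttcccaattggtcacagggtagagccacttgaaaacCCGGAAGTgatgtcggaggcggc
Utp4, chr8:106893550-106893639, plus strand: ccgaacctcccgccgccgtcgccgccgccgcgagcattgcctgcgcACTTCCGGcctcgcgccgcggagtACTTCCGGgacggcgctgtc
Heatr1, chr13:12395285-12395374, plus strand: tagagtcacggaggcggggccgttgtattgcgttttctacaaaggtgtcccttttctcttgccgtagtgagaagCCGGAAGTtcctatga
Nop2, chr6:125131793-125131882, plus strand: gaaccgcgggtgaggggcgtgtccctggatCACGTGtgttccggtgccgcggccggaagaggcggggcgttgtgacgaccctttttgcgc
Utp4 holds the ETS letters at 2 places in this stretch. In Rrn3 the ETS letters span the start and are not in the stretch shown, and a second E-box lies 215 bases before the start.

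Library totals ran from 10123058 counts (DuxKO-P7OE replicate 2) to 36025046 (Dppa2KO replicate 2), and the 42 genes took 0.736% to 1.31% of a library's counts. Levels below are CPM (counts scaled to library size) after trimmed mean scaling and are not per gene length, so they compare libraries and not genes. Ctbp1 was at 64.1 and 68.7 CPM in WT and at 0.2 CPM or less in the libraries of the 3 genotypes labelled as lacking Ctbp, and Ctbp2 was at 211 and 215 against 36.5 to 43.8 CPM. Dppa2 was at 29.1 to 33.2 CPM in Dppa2KO and 19.6 to 21.3 in DKO-Dppa2, against 57.2 and 60.9 CPM in WT, so its RNA was lower and not absent. Pramel7 was at 14 and 26.2 CPM in P7OE, 49.2 and 56.6 in DuxKO-P7OE and at most 0.154 CPM in WT, a level at which a knockout cannot be checked. Duxf3, a gene of the Dux array, was listed at 0 in the genotype table libraries labelled as lacking Dux and at 0.67 to 1.22 CPM in CtbpDKO. No Duxf3 level is given here for WT or for the Pramel7 table, so these values do not check the loss of Dux against WT. For the DKO-Dppa2 pair the title names Dux and the description names Ctbp and Dppa2; the low Ctbp1, Ctbp2 and Dppa2 values go with the description, which was used. The 9 embryonic stem cell markers summed to 1842 to 3900 CPM in the genotype and Pramel7 tables with 0 genes at 0, and the 6 fibroblast markers summed to 11.6 CPM or less there. In the Pramel7 table the WT libraries stood apart in pairs: in 16 of the 42 genes both WT 5 and WT 6 lay above WT 3 and WT 4, in 18 both lay below, and in 8 they overlapped. The share over all tested genes was not counted, so these counts do not set the 42 genes apart from other genes. The log2 ratio of the second pair to the first ran from -0.67 (Nop16) to 1.37 (Gar1) with a median of 0.04, so the counts of P7OE, P7KO and DuxKO against that WT group are also given with each pair alone; the interaction of Pramel7 and Dux is not.

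Part of the set was higher in cells without CtBP. In CtbpDKO against WT, 12 of 42 genes (28.6%) were called higher under an adjusted p of 0.05, against 14.7% of all tested genes. Among the 9163 genes at least as abundant as the least abundant of the 42, called abundant genes below, the share was 19.2%. None of the 42 was called lower by edgeR, against 11.4% of all tested genes. Of the 42, 2 were lower at an unadjusted p under 0.05 and 0 by DESeq2. The median log2 change was 0.20, against 0.01 over all tested genes, and 33 of the 42 values were positive. Every role was represented: 2 of 8 genes of RNA polymerase I and its factors, 3 of 8 snoRNP genes, 3 of 12 of the processome and 40S group, 2 of 9 of the 60S group and 2 of 5 multifunctional nucleolar proteins. Markers of other cell types also differed in this comparison: from WT to CtbpDKO the 6 fibroblast markers went from 1.74 to 2.25 CPM in sum to 11.3 to 11.6 (2 at 0 in each), the 5 trophoblast markers from 6.22 to 6.64 to 19.1 (1 and 0 at 0), and the 4 neuroectoderm markers from 47.8 to 51.6 to 17.3 to 17.8 (1 and 0 at 0). The 7 primitive endoderm markers went from 28.4 to 33.2 to 38.5 to 40.7 CPM (0 at 0). Their part in the result was not tested. Without WT replicate 1 the count was 5, and without CtbpDKO replicate 1 it was 7, all higher.

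Bop1, a scaffold of the complex that processes the large subunit precursor, stood at 159 and 158 CPM in WT and at 253 and 247 in CtbpDKO. Its log2 change was 0.66 (SE 0.08, adjusted p = 2.58e-05), and its partners Pes1 and Wdr12 in the same complex were not called. Rrp9, a protein specific to the snoRNP that guides early cuts of the precursor, went from 126 and 121 to 207 and 180 CPM (0.65, SE 0.09, adjusted p = 9.39e-05). Bysl, a factor of small subunit maturation, was at 86.9 and 102 CPM in WT and 136 and 142 in CtbpDKO (0.56, SE 0.09, adjusted p = 0.000411). In these 3 genes all CtbpDKO libraries lay above all WT libraries, and the call held in every alternative run. Taf1c, a subunit of the selectivity factor that brings polymerase I to its promoter, had the largest value, from 30.4 and 33.7 to 56.7 and 52.5 CPM (0.77, SE 0.10, adjusted p = 5.57e-05).

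Ncl, which encodes nucleolin, an abundant protein of ribosomal DNA chromatin and precursor processing, was at 1403 and 1554 CPM in WT and at 1973 and 1911 in CtbpDKO (log2 change 0.39, SE 0.11, adjusted p = 0.0169). The call was lost without WT replicate 1 and without CtbpDKO replicate 1. Polr1b, the second largest subunit of the polymerase, went from 52.2 and 57.4 to 68.3 and 73.0 CPM (0.37, adjusted p = 0.0125). Ddx21 (0.32), Ddx18 (0.31), Nhp2 (0.29) and Nop56 (0.26) were called with smaller changes. Utp4, from 104 and 113 to 152 and 174 CPM (0.58), and Nob1, from 80.9 and 84.1 to 108 and 107 CPM, were also called. Both lie on chromosome 8, as Taf1c does, and the shift of that chromosome is described below. Npm1, which encodes nucleophosmin, Fbl, the snoRNP methyltransferase fibrillarin, Polr1a, the largest polymerase subunit, Ubtf, the factor that coats active ribosomal DNA, and Rrn3, the factor that makes the polymerase competent to start, were not called. Fbl was at 238 and 241 CPM in WT and 252 and 229 in CtbpDKO, and Rrn3 at 131 and 135 against 131 and 127, so both overlapped or lay side by side.

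**Figure D1:**
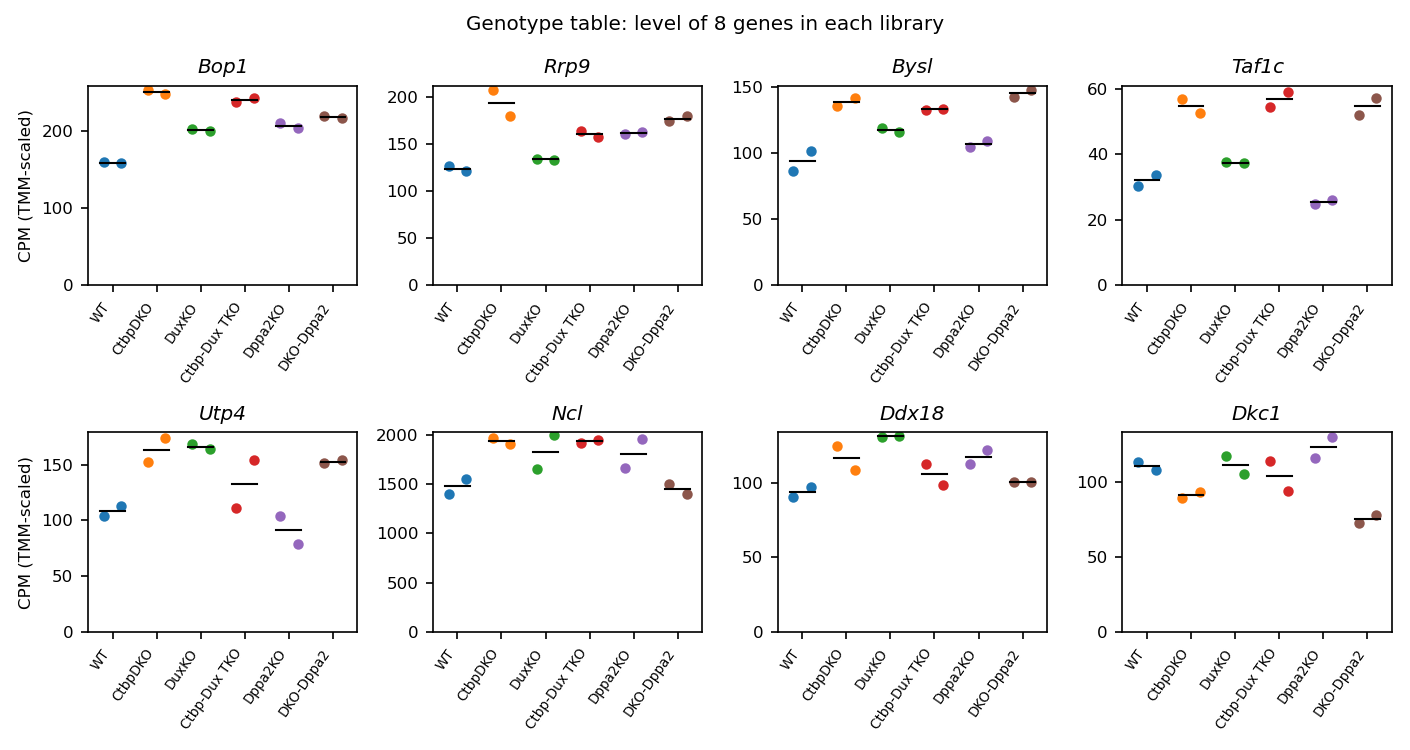
Level of 8 genes in the genotype table, in TMM-scaled CPM (vertical axis, from 0) for each of the 6 groups (horizontal axis); points are libraries and bars are means of 2. Bop1, Rrp9, Bysl, Taf1c and Utp4 sit higher in CtbpDKO than in WT, Ddx18 is highest in DuxKO, and Dkc1 is lowest in DKO-Dppa2.

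The list of 99 other ribosome biogenesis factors gave a count in the same direction, with 26 called higher and 1 lower in CtbpDKO against WT and a median of 0.14. Noc2l (0.79, adjusted p = 9.25e-06) and Las1l (0.60, adjusted p = 0.0005), both factors of large subunit assembly, had the largest values, and Exosc8, an exosome subunit, was the 1 that fell (-0.37). The 77 cytosolic ribosomal protein genes, the products that these factors assemble, gave 1 called higher and 3 lower with a median of -0.06. Myc, a known activator of ribosome biogenesis genes, rose from 92.8 and 101 to 139 and 135 CPM (0.50, adjusted p = 0.00105), while its relative Mycn fell from 190 and 202 to 92.4 and 84.0 CPM (-1.15, adjusted p = 4.1e-07). Trim28, a corepressor, rose by 0.26 (adjusted p = 0.0377). The part of Myc, Mycn and Trim28 in the result was not tested.

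Single loss of Dux or of Dppa2 gave smaller counts. In DuxKO against WT of the genotype table, edgeR called 8 of 42 genes (19.0%) higher, against 7.94% of all tested genes and 14.2% of abundant ones, and 0 lower, against 9.56% (1 at an unadjusted p under 0.05, 0 by DESeq2). The median was 0.13, and 0.08 relative to the median of each gene's chromosome. Utp4, a subunit of the first processome module, had the largest change, from 104 and 113 to 168 and 164 CPM (0.61, adjusted p = 0.0119), followed by Ddx18, a helicase of the large subunit, from 90.4 and 97.6 to 131 and 132 CPM (0.49, adjusted p = 0.00393), Nob1, the nuclease that trims the small subunit RNA (0.46, adjusted p = 0.00264), and Utp20, a large processome scaffold (0.37, adjusted p = 0.0123). Ddx18 and Nob1 held in every alternative. From WT to DuxKO the primitive endoderm markers went from 28.4 to 33.2 CPM in sum to 7.44 to 7.92 (0 at 0), and the trophoblast markers from 6.22 to 6.64 to 11.7 to 12.7 (1 at 0); their part in the result was not tested. The count was 3 without WT replicate 1, 5 without WT replicate 2, 5 without DuxKO replicate 1 and 4 without DuxKO replicate 2. Among the always-named genes none was called: Ncl was at 1649 and 1995 CPM in DuxKO and Npm1 at 942 and 923 against 794 and 752 in WT, and Rrn3 at 107 and 110 against 131 and 135.

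In Dppa2KO against WT 8 of 42 (19.0%) were called higher, against 7.67% of all tested genes and 13.9% of abundant ones, and 1 lower, against 8.69%, with a median of 0.05. Npm3, a relative of nucleophosmin, went from 52.4 and 55.2 to 79.1 and 65.2 CPM (0.42, adjusted p = 0.0214), Rrp9 from 126 and 121 to 160 and 163 (0.39, adjusted p = 0.00853), Fbl from 238 and 241 to 313 and 313 (0.39, adjusted p = 0.0232) and Bop1 from 159 and 158 to 210 and 203 (0.38, adjusted p = 0.00445). Only Bop1 of these 4 held in every alternative run. Taf1c was the 1 gene called lower, from 30.4 and 33.7 to 24.8 and 26.1 CPM (-0.33, adjusted p = 0.0343). From WT to Dppa2KO the embryonic stem cell markers went from 2907 to 2951 CPM in sum to 3578 to 3900. Primitive endoderm markers went from 28.4 to 33.2 to 17.6 to 20.9, and neuroectoderm markers from 47.8 to 51.6 to 34.1 to 35.7. Trophoblast markers went from 6.22 to 6.64 to 4.93 to 5.17, and mesoderm markers from 1.63 to 1.88 to 2.15 to 2.28. Their part in the result was not tested. Counts rest on single libraries here: 2 without WT replicate 1, 1 without WT replicate 2, 3 without Dppa2KO replicate 1, 5 without Dppa2KO replicate 2 and 5 with only these 2 groups in the fit. With upper quartile scaling 5 were called higher and 2 lower.

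Few of the genes differed when Dux was lost as well as CtBP. In Ctbp-Dux TKO against CtbpDKO 0 genes were called higher, against 3.6% of all tested genes (1 at an unadjusted p under 0.05, 0 by DESeq2), and 1 lower, against 4.54%. That gene, Nop14 of the processome, was at 144 and 135 CPM in CtbpDKO and 83.1 and 112 in Ctbp-Dux TKO (-0.51, adjusted p = 0.0371), and the count was 0 without either CtbpDKO library or without Ctbp-Dux TKO replicate 1, 0 with a replicate block and 2 lower without Ctbp-Dux TKO replicate 2. The median was -0.09 with 32 of 42 values negative. Bop1 stood at 237 and 242 CPM and Ncl at 1919 and 1948 CPM in Ctbp-Dux TKO, beside 253 and 247, and 1973 and 1911, in CtbpDKO.

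Against DuxKO, Ctbp-Dux TKO had 5 genes called higher (11.9%, against 21.4% of all tested genes) and 8 lower (19.0%, against 19.6%), so the shares did not exceed the background, and the median of -0.08 became 0.08 relative to the chromosome medians. Taf1c (0.60, adjusted p = 0.000262), Polr1b (0.53, adjusted p = 0.000745), Rrn3 (0.48, adjusted p = 0.00489) and Rrp9 (0.27, adjusted p = 0.0243) led the higher genes, and Fbl (-0.49, adjusted p = 0.0023), Taf1b (-0.46, adjusted p = 0.0438), Wdr75 (-0.43, adjusted p = 0.0149) and Gnl3, the GTPase nucleostemin (-0.42, adjusted p = 0.00678), led the lower ones. Polr1b was at 53.4 and 58.0 CPM in DuxKO and 82.5 and 77.9 in Ctbp-Dux TKO, and Fbl at 260 and 329 against 206 and 214, without overlap in either. Npm1 fell from 942 and 923 to 809 and 710 CPM (-0.30, adjusted p = 0.018). The count was 6 without DuxKO replicate 1, 8 without DuxKO replicate 2 and 7 without Ctbp-Dux TKO replicate 1. Of the 77 ribosomal protein genes, 57 were called lower and 0 higher here, with a median of -0.39. The 7 primitive endoderm markers, of which 7 were called higher, summed to 7.44 to 7.92 CPM in DuxKO and 134 to 137 in Ctbp-Dux TKO with 0 at 0; their part in these changes was not tested.

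Ncl, Npm1, Ddx21 and Mybbp1a, of the multifunctional nucleolar proteins, were called lower where Dppa2 was lost as well as CtBP. In DKO-Dppa2 against CtbpDKO 2 genes were called higher (4.76%, against 5.75% of all tested genes) and 8 lower (19.0%, against 9.67% and 13.4% of abundant genes), with a median of -0.15. The fifth of these proteins, Npm3 (-0.15), was not called, nor was Fbl, at 252 and 229 CPM in CtbpDKO and 247 and 259 in DKO-Dppa2. The 7 primitive endoderm markers went from 38.5 to 40.7 CPM in sum to 10.7 to 11.3 with 0 at 0, and their part in the result was not tested. Ncl fell from 1973 and 1911 to 1502 and 1397 CPM (-0.42, SE 0.11, adjusted p = 0.0204), near the WT level of 1403 and 1554. Npm1 fell from 754 and 825 to 609 and 591 CPM (-0.40, SE 0.09, adjusted p = 0.0104), below WT at 794 and 752. Utp20 (-0.42, adjusted p = 0.00704) and Tcof1, which encodes the polymerase I factor treacle (-0.40, adjusted p = 0.0162), were the others among the largest. Ubtf fell from 455 and 402 to 336 and 323 CPM (-0.38, adjusted p = 0.0118), while Nob1 (0.31, adjusted p = 0.0289) and Polr1c (0.30, adjusted p = 0.0366), a subunit shared with RNA polymerase III, rose. No gene was called without DKO-Dppa2 replicate 2, 3 were called lower without CtbpDKO replicate 1 and 2 lower without CtbpDKO replicate 2.

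In DKO-Dppa2 against Dppa2KO 4 genes were called higher (9.52%, against 15.2% of all tested genes) and 10 lower (23.8%, against 15.2% and 24.0% of abundant genes), with a median of -0.07. Taf1c (1.10, adjusted p = 2.5e-06), Utp4 (0.73, adjusted p = 0.00209), Nob1 (0.63, adjusted p = 0.000105) and Bysl (0.44, adjusted p = 0.00212) rose. Dkc1, the pseudouridine synthase of snoRNPs, fell from 116 and 130 to 72.6 and 77.7 CPM (-0.71, adjusted p = 0.000235), Npm1 from 845 and 881 to 609 and 591 (-0.52, adjusted p = 0.000676), Rrn3 from 132 and 165 to 106 and 102 (-0.51, adjusted p = 0.00465) and Wdr75, of the first processome module, from 77.2 and 70.7 to 56.6 and 56.6 (-0.39, adjusted p = 0.0356). In these 4 genes the libraries did not overlap, and Dkc1 and Npm1 held in every alternative. From Dppa2KO to DKO-Dppa2 the embryonic stem cell markers went from 3578 to 3900 CPM in sum to 2436 to 2553. Primitive endoderm markers went from 17.6 to 20.9 to 10.7 to 11.3, and neuroectoderm markers from 34.1 to 35.7 to 16 to 17.5. Trophoblast markers rose from 4.93 to 5.17 to 20.8 to 21.9, and fibroblast markers from 0.624 to 0.935 to 4 to 4.62. Their part in the result was not tested. With upper quartile scaling 5 of the 42 genes were called higher and 4 lower. The counts were 4 higher and 4 lower with only these groups in the fit and without either DKO-Dppa2 library, and 4 and 3 without Dppa2KO replicate 2.

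The effect of CtBP loss was tested against the background it was made in. The interaction of Ctbp and Dux loss, the change in DuxKO cells minus the change in WT cells, was called in 1 gene higher (2.38%, against 9.82% of all tested genes) and 9 lower (21.4%, against 9.63% and 18.4% of abundant genes), with 35 of 42 values negative and a median of -0.23. Utp4 (-0.91, adjusted p = 0.00851), Ddx18 (-0.63, adjusted p = 0.00668), Nob1 (-0.60, adjusted p = 0.00446) and Fbl (-0.50, adjusted p = 0.0321) were the most negative, and Rrn3 the 1 positive gene (0.52, adjusted p = 0.0409). Ddx18 shows the pattern: CtBP loss took it from 90.4 and 97.6 to 125 and 109 CPM in cells with Dux, and from 131 and 132 to 113 and 99.0 CPM in cells without. The count was 3 lower without WT replicate 1 or CtbpDKO replicate 1, 5 without WT replicate 2, 6 without DuxKO replicate 1, and 4 without DuxKO replicate 2 or Ctbp-Dux TKO replicate 1, all lower.

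The interaction of Ctbp and Dppa2 loss was called in 0 genes higher by edgeR, against 3.23% of all tested genes (1 at an unadjusted p under 0.05, 0 by DESeq2), and in 9 lower (21.4%, against 5% and 9.05% of abundant genes), with a median of -0.20. All 5 multifunctional nucleolar proteins were among the 9. Ncl (-0.72, adjusted p = 0.0142), Bop1 (-0.58, adjusted p = 0.00568), Npm3 (-0.57, adjusted p = 0.0437) and Npm1 (-0.55, adjusted p = 0.0187) were the largest, and of these Bop1 held in every alternative. Ncl went from 1403 and 1554 to 1973 and 1911 CPM with CtBP loss in cells with Dppa2, and from 1667 and 1956 to 1502 and 1397 in Dppa2KO cells. Myc moved the same way, with an interaction of -0.91 (adjusted p = 0.00121), and Mycn the opposite way (0.99, adjusted p = 0.000388); their part in the changes was not tested. The count was 2 without either WT library, 3 without CtbpDKO replicate 1 or DKO-Dppa2 replicate 1, and 5 without Dppa2KO replicate 2, without DKO-Dppa2 replicate 2 or with only the 4 groups in the fit.

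**Figure D2:**
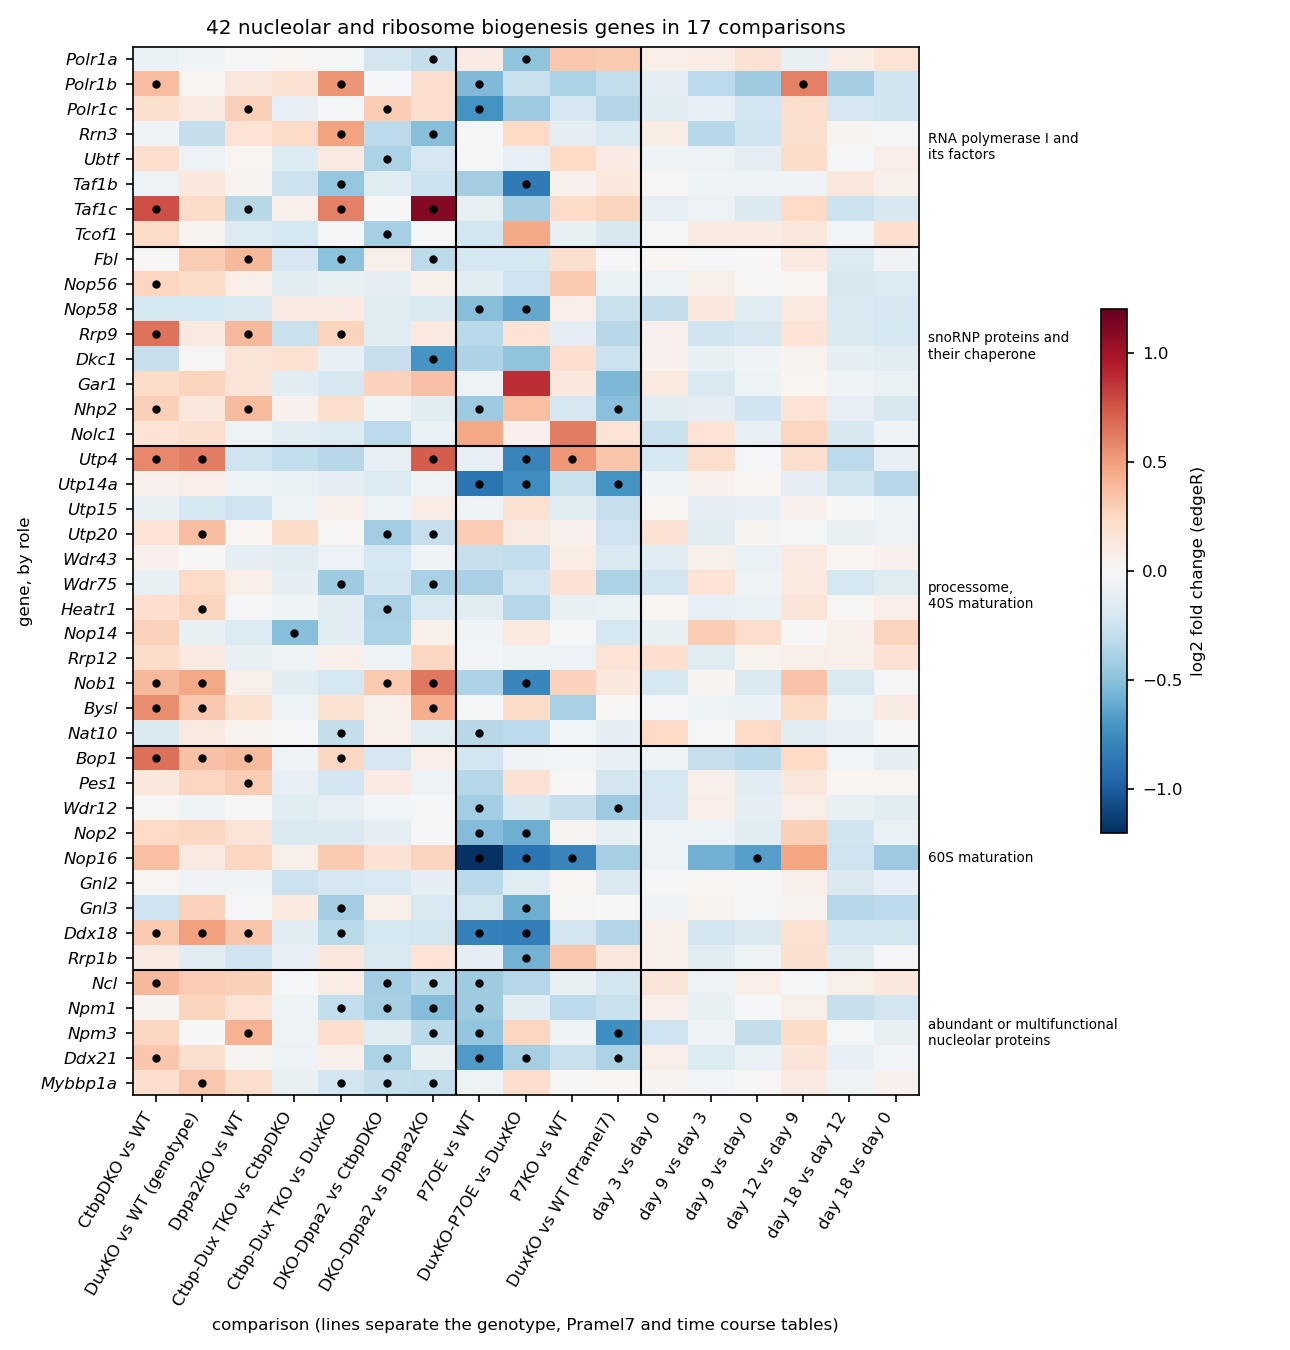
Log2 fold change (colour) of the 42 genes (rows, by role) in 17 comparisons (columns), with a black dot where the adjusted p was under 0.05. Dots in the CtbpDKO, DuxKO and Dppa2KO columns against WT of the genotype table are mostly red, those in the Pramel7 overexpression columns are all blue, and the time course holds 2.

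Overexpression of Pramel7, which encodes a leucine-rich repeat protein known for lowering DNA methylation in naive stem cells, went with lower levels in all 5 roles. In P7OE against WT 14 of 42 (33.3%) were called lower, against 8.9% of all tested genes and 12.7% of abundant ones, and 0 higher by edgeR, against 11% (0 at an unadjusted p under 0.05, 0 by DESeq2). The median was -0.30, against -0.01 over all tested genes, and -0.25 relative to the chromosome medians. Of the 42 values 39 were negative. The 14 were 2 genes of RNA polymerase I and its factors, 2 of the snoRNPs, 2 of the processome and 40S group, 4 of the 60S group and 4 of the multifunctional nucleolar proteins. The count was lower without single libraries: 9 without WT replicate 4, 5 without P7OE replicate 1, 3 without P7OE replicate 2 and 6 with only these 2 groups in the fit, all lower. With WT 3 and 4 alone 3 were called higher and 22 lower, and with WT 5 and 6 alone 0 and 19. The share of all tested genes called against each WT pair was not counted.

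Nop16, a late factor of the large subunit, was at 29.8, 32.8, 18.9 and 20.5 CPM in WT 3 to 6 and at 11.6 and 10.7 in P7OE (-1.19, SE 0.23, adjusted p = 0.00331). Utp14a, a processome subunit, went from 96.5 to 115 CPM in the 4 WT libraries to 60.1 and 55.2 (-0.88, SE 0.12, adjusted p = 0.000342). Ddx18 was at 165 to 229 CPM in WT and at 126 and 105 in P7OE (-0.81, SE 0.15, adjusted p = 0.00255). Both P7OE libraries lay below all 4 WT libraries in these genes, also where WT varied most. Polr1c (-0.72, adjusted p = 0.00898), Ddx21, a helicase of polymerase I transcription and processing (-0.68, adjusted p = 0.00138), and Polr1b (-0.53, adjusted p = 0.0294) followed. Utp14a and Ddx21 held in every alternative run, and Nop16, Ddx18 and Polr1c in all but the one without P7OE replicate 2.

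Ncl was at 2925 to 3167 CPM in the 4 WT libraries and at 2259 and 2207 in P7OE (-0.43, SE 0.13, adjusted p = 0.0387), and Npm1 at 824 to 1037 against 726 and 701 (-0.43, SE 0.13, adjusted p = 0.0337). Nop2, a methyltransferase of the large subunit RNA, Nop58, Npm3, Nhp2, Wdr12 and Nat10, an acetyltransferase, were called lower by 0.33 to 0.52 on the log2 scale. Fbl, Polr1a, Ubtf and Rrn3 were not called: Ubtf was at 385 to 423 CPM in WT and 403 and 389 in P7OE, and Rrn3 at 118 to 182 against 134 and 140. Of the 99 other ribosome biogenesis factors 23 were called lower and 3 higher, led by Nle1 (-0.82, adjusted p = 0.00319) and Fcf1 (-0.74, adjusted p = 0.00148) on one side and by Dhx37 (0.54, adjusted p = 0.0185) and Ddx54 (0.53, adjusted p = 0.00708) on the other, and of the 77 ribosomal proteins 8 lower and 3 higher. Mycn fell from 255 to 324 CPM in WT to 150 and 135 (-0.99, adjusted p = 0.000342). The level of Myc is not given for this comparison, and the part of either gene in the result was not tested.

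Pramel7 overexpression in DuxKO cells reached a higher Pramel7 level than in WT cells, 49.2 and 56.6 against 14 and 26.2 CPM. It gave 12 of 42 genes called lower (28.6%, against 9.83% of all tested genes and 14.2% of abundant ones) and 0 higher by edgeR, against 11.6% (1 at an unadjusted p under 0.05, 0 by DESeq2), with a median of -0.24 and -0.16 relative to the chromosome medians. Nop16 (-0.88, adjusted p = 0.0329), Taf1b, a selectivity factor subunit (-0.85, adjusted p = 0.0124), Ddx18 (-0.82, adjusted p = 0.00495) and Utp4 (-0.79, adjusted p = 0.00563) had the largest changes. Ddx18 went from 161 and 157 CPM in DuxKO to 94.8 and 85.6, and Utp14a from 59.9 and 69.2 to 36.3 and 40.4 (-0.75, adjusted p = 0.00225); these calls and that of Nob1 (-0.78, adjusted p = 0.00266) held in every alternative. Gnl3, Rrp1b, Nop2, Nop58, Polr1a and Ddx21 were the other genes called. Of the 12 genes, Nop16, Ddx18, Utp14a, Nop58, Nop2 and Ddx21 were also among the 14 of P7OE against WT; these are 6 genes, or 50% of the 12 and 42.9% of the 14. The count was 4 without DuxKO replicate 4, 5 without DuxKO-P7OE replicate 1 and 6 without DuxKO-P7OE replicate 2. The 7 primitive endoderm markers, all called higher in both overexpression comparisons, summed to 7.27 to 8.99 CPM in WT, 7.85 to 9.56 in DuxKO, 76.9 to 81.5 in P7OE and 71.5 to 77.8 in DuxKO-P7OE with 0 at 0; their part in these results was not tested. The 4 mesoderm markers summed to 12.7 to 20.6 CPM in WT and to 5.59 or less in the other groups of this table. In bulk RNA fewer cells of a type and less RNA per cell cannot be told apart.

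The difference between the responses of the Dux backgrounds, which differ in Pramel7 level too, so that dose and Dux cannot be told apart, was called in 2 genes higher (4.76%, against 4.27% of all tested genes) and 0 lower by edgeR, against 3.23% (3 at an unadjusted p under 0.05, 0 by DESeq2). Nhp2, of the snoRNPs that carry pseudouridine synthase, fell with Pramel7 in WT cells, from 155 to 178 CPM to 128 and 113, and was at 113 and 118 in DuxKO and 162 and 134 in DuxKO-P7OE (interaction 0.80, adjusted p = 0.0265). Npm3 followed (0.73, adjusted p = 0.0379). Nhp2 lies on chromosome 11, whose median was 0.26 in this interaction and 0.23 in DuxKO-P7OE against DuxKO, and relative to it the interaction of Nhp2 was 0.54. Nhp2 itself was not called in DuxKO-P7OE against DuxKO (0.36, adjusted p = 0.0987), and the part of the chromosome in this result was not tested. The count was 1 without DuxKO-P7OE replicate 2, 3 without WT replicate 5, and 0 without DuxKO-P7OE replicate 1, either DuxKO library or either P7OE library.

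**Figure D3:**
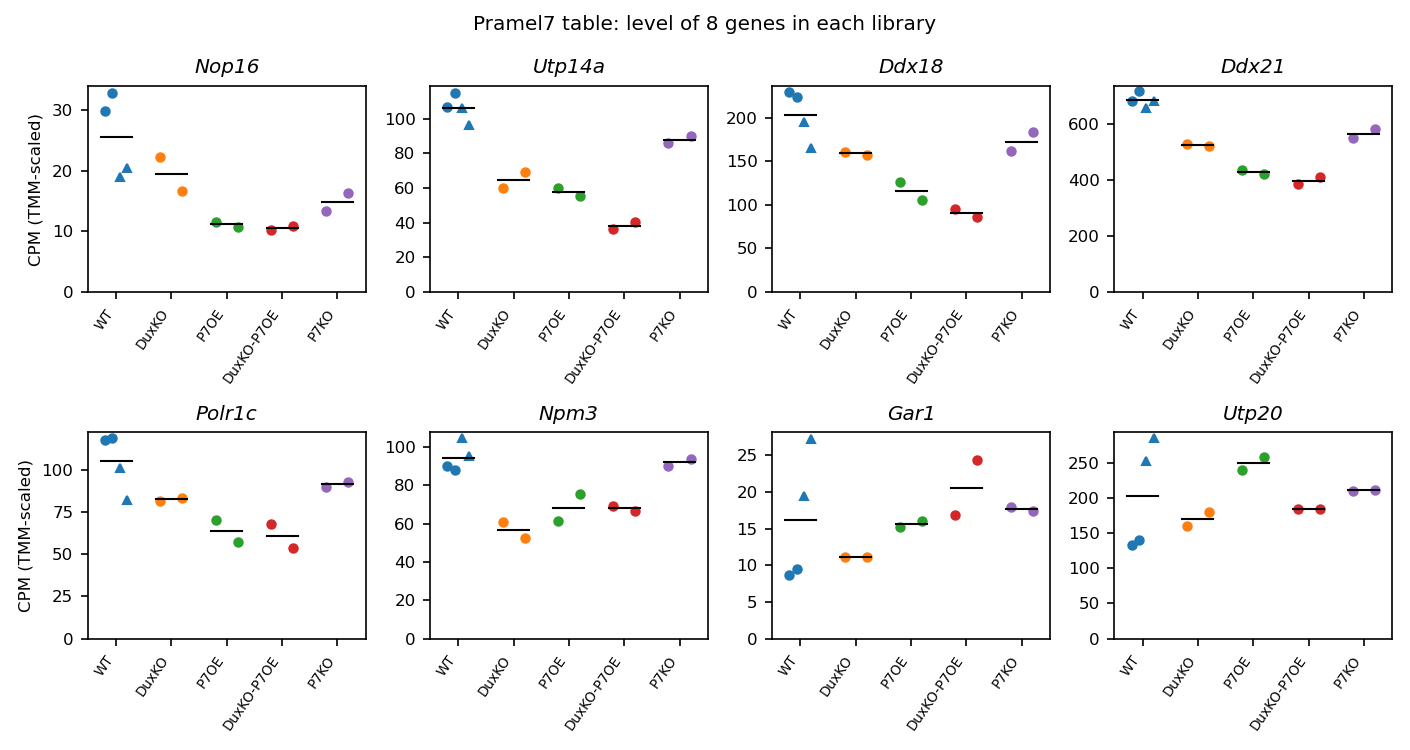
Level of 8 genes in the Pramel7 table, in TMM-scaled CPM (vertical axis, from 0) by group (horizontal axis); points are libraries, bars are means, and in WT circles are libraries 3 and 4 and triangles 5 and 6. Both overexpression groups lie below WT for Nop16, Utp14a, Ddx18 and Ddx21, while Gar1 and Utp20 differ more between the WT pairs than between most groups.

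Loss of Pramel7 changed few of the genes when all WT libraries were used. In P7KO against WT 1 gene was called higher (2.38%, against 3.93% of all tested genes) and 1 lower (2.38%, against 5.55%), with a median of 0.00. Utp4 went from 101 to 136 CPM in WT to 148 and 171 (0.52, adjusted p = 0.0356), and Nop16 from 18.9 to 32.8 CPM to 13.3 and 16.3 (-0.79, adjusted p = 0.0433). The result rests on which WT libraries are used: 9 genes were called higher and 7 lower against WT 3 and 4, and 0 against WT 5 and 6. The share of all tested genes called against each pair was not counted, so these counts have no background. DESeq2 gave 2 higher and 5 lower, the fit with only these groups gave 0, and 0 were called without WT replicate 3, WT replicate 4 or either P7KO library, while 2 higher and 2 lower were called without WT replicate 5.

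DuxKO against WT was also measured in the Pramel7 table, which shares no library with the genotype table. Here 0 genes were called higher by edgeR, against 7.75% of all tested genes (2 at an unadjusted p under 0.05, 0 by DESeq2), and 5 lower (11.9%, against 8.92%), with a median of -0.19. Npm3 went from 87.8 to 105 CPM in WT to 61.1 and 52.3 (-0.74, adjusted p = 0.00196), Utp14a from 96.5 to 115 to 59.9 and 69.2 (-0.72, adjusted p = 0.00141), Nhp2 from 155 to 178 to 113 and 118 (-0.50, adjusted p = 0.0189) and Wdr12, of the same complex as Bop1, from 79.1 to 85.2 to 58.6 and 63.5 (-0.44, adjusted p = 0.0146). None of the 8 genes called higher in the genotype table was called lower here. By log2 changes rounded to 2 decimals, 23 of 42 genes were positive there and negative here, with Gnl3, at 0 here, among them. Another 8 were positive in both, 6 negative in both and 3 the reverse. Wdr43 and Npm3, at 0 in the genotype table and negative here, are in none of these classes. The lower count was 14 with WT 3 and 4 alone, beside 4 higher, 11 with WT 5 and 6 alone, 8 without WT replicate 6, 2 without DuxKO replicate 3 and 1 without DuxKO replicate 4. For the fits with a single WT pair the share of all tested genes was not counted. Of the other ribosome biogenesis factors 1 was called higher and 16 lower in this table, against 20 higher and 5 lower in the genotype table.

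Utp4, Nob1 and Taf1c lie on chromosome 8, whose genes were shifted as a whole in several comparisons. In the genotype table its median was taken over 611 genes at an average log2 CPM of 2 or more, a wider set than the abundant genes above. The median log2 change was 0.35 in CtbpDKO against WT, 0.37 in DuxKO against WT and 0.50 in DKO-Dppa2 against Dppa2KO. Relative to these medians Nob1 changed by 0.04, 0.08 and 0.13, Utp4 by 0.23, 0.24 and 0.23, and Taf1c by 0.42 and 0.60 in the first and the last. In the Pramel7 table the chromosome 8 median was -0.31 in DuxKO-P7OE against DuxKO, where Utp4 and Nob1 fell by 0.48 and 0.46 relative to it, and 0.19 in P7KO against WT, where Utp4 was 0.33 above it. For the interaction of Ctbp and Dux loss the median was -0.48, and Utp4 and Nob1 were at -0.44 and -0.12 relative to it. Some calls came where the chromosome was not shifted in their direction: Taf1c rose by 0.60 in Ctbp-Dux TKO against DuxKO, where the median was -0.14, and Nob1 by 0.31 in DKO-Dppa2 against CtbpDKO, where it was -0.01. The part of the chromosome's shift in the calls of these 3 genes was not tested. Without them 1 gene was called in P7KO against WT. All 3 were among the 12 genes called higher in CtbpDKO against WT. In DKO-Dppa2 against Dppa2KO they were among the 4 called higher, and only Bysl of the 4 lies on another chromosome. Utp4 and Nob1 were among the 8 called higher in DuxKO against WT of the genotype table.

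**Figure D4:**
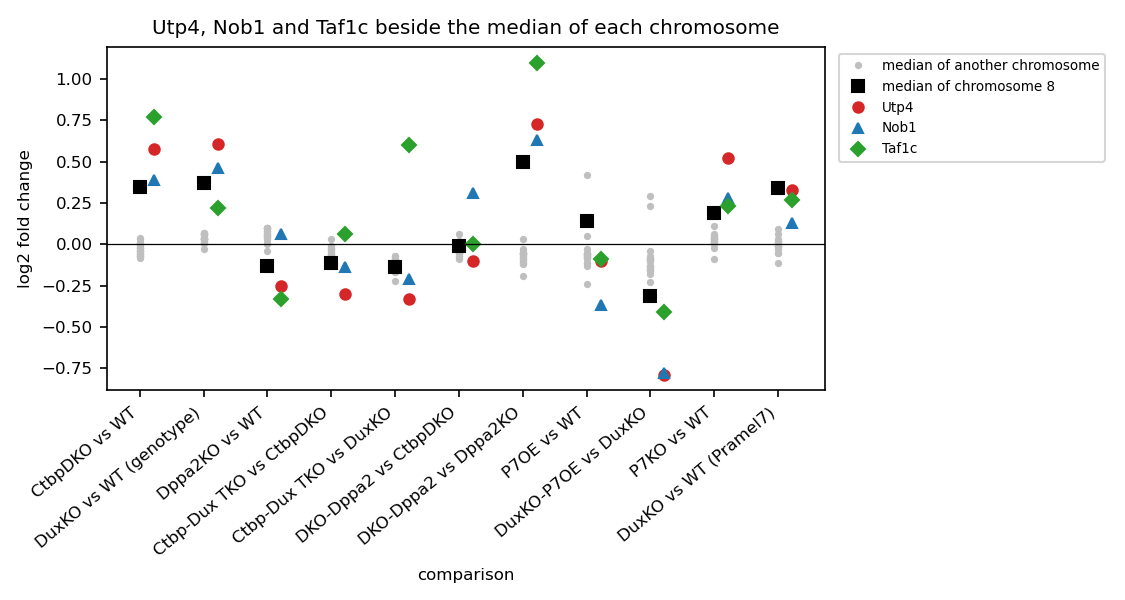
Log2 fold change (vertical axis) of Utp4, Nob1 and Taf1c (coloured symbols), the median of chromosome 8 (black squares) and the medians of the other autosomes and X (grey points) in 11 comparisons (horizontal axis). The chromosome 8 median lies above those of the other autosomes and X in CtbpDKO against WT (0.35), in both DuxKO comparisons with WT and in DKO-Dppa2 against Dppa2KO (0.50), and below them in DuxKO-P7OE against DuxKO (-0.31).

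In the time course of CtbpDKO cells the set moved little, while Ctbp2 went from 58.9 and 59.3 CPM at day 0 to 543 and 572 at day 3, 309 and 295 at day 9, 49.3 and 44.7 at day 12 and 52.4 and 54.7 at day 18. From day 0 to day 3 edgeR called 0 of 42 genes higher, against 2.41% of all tested genes, and 0 lower, against 2.59% (1 and 2 at an unadjusted p under 0.05, 0 by DESeq2). From day 3 to day 9 it called 0 higher, against 0.524%, and 0 lower, against 0.592% (1 and 3 unadjusted, 0 by DESeq2). Between day 0 and day 9 it called 0 higher, against 3.6%, and 1 lower, against 3.73% (1 and 6 unadjusted, 0 by DESeq2). That gene, Nop16, was at 11.2 and 9.87 CPM at day 0 and 6.14 and 7.24 at day 9 (-0.66, adjusted p = 0.0304), and it was not called without any 1 of the 4 libraries or with only these groups in the fit. Without the filter on low counts 2 genes were called lower.

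From day 9 to day 12, when Ctbp2 fell back, 1 gene was called higher, against 1.87% of all tested genes, and 0 lower, against 1.97% (4 and 0 unadjusted; 1 higher and 0 lower by DESeq2). Polr1b went from 34.3 and 29.9 to 50 and 47.2 CPM (0.60, SE 0.15, adjusted p = 0.045), after 43.6 and 42.9 CPM at day 0 and before 29.2 and 43.7 at day 18. It was not called without any 1 of the 4 libraries or with a replicate block. The other 41 genes were not called. Of the 42 values 36 were positive, and the median was 0.13 against -0.01 over all tested genes. Myc rose over the same days, from 35.3 and 32.8 to 62.3 and 63.6 CPM (0.89, adjusted p = 0.00585). The level of Mycn is not given for these days, and the part of either gene in the result was not tested. Of the other ribosome biogenesis factors 1 of 99 was called higher, Cd3eap (0.46, adjusted p = 0.0305), a subunit of polymerase I. Over these days the primitive endoderm markers went from 18.1 to 18.8 CPM in sum to 28.8 to 31.4. Fibroblast markers went from 5.45 to 7.45 to 14.8 to 16.7, and trophoblast markers from 15.6 to 17.1 to 25.1 to 29.2. Neuroectoderm markers went from 20.7 to 23.7 to 19.2 to 20, and mesoderm markers from 2.78 to 3.88 to 2.18 to 2.34. Their part in the result was not tested.

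From day 12 to day 18 edgeR called 0 genes higher, against 0.64% of all tested genes, and 0 lower, against 0.18% (0 and 3 unadjusted, 0 by DESeq2), though 1 was called lower without the second day 18 library. Day 18 against day 0 gave 0 higher, against 0.359%, and 0 lower, against 0.155% (1 and 4 unadjusted, 0 by DESeq2). Primitive endoderm markers summed to 17.7 to 21.2 CPM at day 0 and 63.6 to 72.4 at day 18, and fibroblast markers to 9.95 to 11.8 and 18.8 to 20.5. Trophoblast markers were at 22.5 to 23.8 and 21.7 to 23.2, neuroectoderm markers at 19.6 to 19.8 and 13.3 to 16, and mesoderm markers at 1.16 to 1.69 and 0.678 to 0.864. The day 18 libraries differed more from each other than those of other days, with a median SD of 0.14 on the log2 scale over the 42 genes against 0.04 to 0.09. Ncl stayed between 1722 and 2041 CPM over all 10 libraries, Fbl between 206 and 252, Ubtf between 292 and 375, Polr1a between 183 and 232, Rrn3 between 95.6 and 128 and Npm1 between 808 and 1099.

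**Figure D5:**
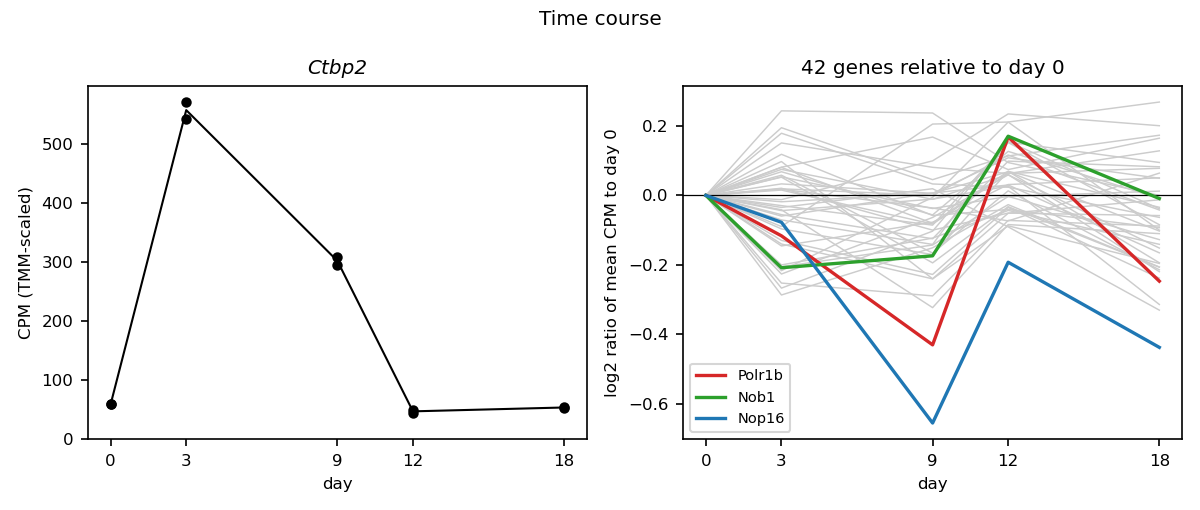
Left, Ctbp2 in TMM-scaled CPM (vertical axis) by day (horizontal axis), with points for libraries and a line through the means of 2. Right, log2 ratio of the mean CPM to day 0 for the 42 genes (grey) with Polr1b, Nob1 and Nop16 coloured; Nop16 is lowest at day 9 and most lines rise from day 9 to day 12.

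Over the 17 comparisons between 2 groups, which share libraries and are not independent, Ddx18 was called most often, in 6 (3 higher, 3 lower), and Utp4, Nob1 and Ddx21 in 5 each. Bop1 was called in 4 and always higher, Nop16 and Npm1 in 4 and always lower. In none were 6 genes called: Rrp12 (export of both subunits), Nolc1 and Gar1 (snoRNP chaperone and snoRNP core), Wdr43 and Utp15 (processome) and Gnl2 (large subunit GTPase). For Gar1 this goes with its spread: it was at 8.62, 9.47, 19.5 and 27.2 CPM in WT 3 to 6, an SD of 0.81 on the log2 scale against a median of 0.16 over the 42 genes in that group. Wdr43 varied little in the genotype table: WT had 179 and 191 CPM, CtbpDKO 191 and 193, and DuxKO 182 and 186.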

How the data were processed

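RNA-seq of 34 libraries was analysed from 3 tables of counts per gene that the authors deposited without normalization. Per the submitters' processing notes, Trim Galore, HISAT2, featureCounts and the build mm10 were used; their versions and settings, the use of strand among them, are not given in the sources used here. The 42 members, the lists and the tests were chosen with earlier results of these data known. Groups were taken from the labels. Genes were filtered with edgeR's filterByExpr, scaled by TMM and tested with edgeR's quasi-likelihood test (edgeR 4.0.16, limma 3.58.1, R 4.3.3), in 1 fit per table over all its groups without a replicate block, with Benjamini-Hochberg adjustment over all genes tested and a threshold of 0.05. CPM values were computed from the TMM-scaled library sizes. DESeq2 1.42.0 was an alternative, as were RLE and upper quartile scaling, no filter, removal of structural RNA genes, fits of the compared groups only, a replicate block, each WT pair and each library left out. No library was a copy of another in its own group: replicates differed by a chi-square of 14.3 to 166 per degree of freedom. Copies between groups or between tables were not searched for. The 26 symbols that had been turned into dates in the genotype and time course tables were not used as members.

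Named genes were, in each comparison, up to 4 called members per direction with the largest change and libraries that did not overlap, the members called most often or never, and Ncl, Npm1, Fbl, Polr1a, Polr1b, Ubtf and Rrn3; of a related list, up to 2 called genes per direction, and others were added for partners in a complex. On simulated counts for CtbpDKO against WT (20261 genes) the test recovered 22% of genes changed by 0.5 on the log2 scale and 96% of those changed by 1. For P7OE against WT (19543 genes) it recovered 10% and 78%, and for day 3 against day 0 (19783 genes) 15% and 90%, so changes of 0.5 were mostly not recovered in these 3 comparisons, of which P7OE against WT has 4 WT libraries. Promoter motifs were counted with Python 3.11.15 and figures drawn with matplotlib 3.10.9.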

Additional observations from a re-analysis of the deposited data

Results flagged for a closer look

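In the 4 WT libraries of the Pramel7 table, a single library stood apart from the others for 3 of 42 genes, by the gap to its nearest neighbour as a share of the range: Polr1a in WT replicate 5 (0.922), Rrn3 in WT replicate 6 (0.875) and Wdr75 in WT replicate 5 (0.885). Chance gives such a gap in about 1 in 20 groups.

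The response to CtBP loss differed with Dux in 10 genes by edgeR's interaction test, 1 higher (2.38%, against 9.82% of all tested genes) and 9 lower (21.4%, against 9.63%, and 18.4% of abundant genes). The differences on the log2 scale were 0.52 for Rrn3, -0.91 for Utp4, -0.63 for Ddx18, -0.60 for Nob1 and -0.50 for Fbl. It differed with Dppa2 in 9 genes, all lower (21.4%, against 5% of all tested genes), with -0.72 for Ncl, -0.58 for Bop1, -0.57 for Npm3 and -0.55 for Npm1. The response to Pramel7 overexpression differed with Dux in 2 genes, Nhp2 (0.80) and Npm3 (0.73), which is 4.76%, against 4.27% of all tested genes called higher.

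For 8 genes, Rrp9, Nhp2, Utp14a, Wdr75, Ddx18, Ncl, Npm1 and Ddx21, both DuxKO libraries lay above both WT libraries in the genotype table and below all 4 WT libraries in the Pramel7 table. This difference between the tables was not tested. The share of all tested genes with such a pattern was not counted, so the 8 cannot be set against a background.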

How the results depend on the processing

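Of 123 calls of a gene in a comparison, 28 held in every alternative, 95 were lost in at least 1 and 0 changed direction. Fitting only the groups compared gave 5 calls in Dppa2KO against WT, 0 in Ctbp-Dux TKO against CtbpDKO, 8 in DKO-Dppa2 against Dppa2KO, 5 in the Ctbp and Dppa2 interaction, 6 in P7OE against WT, 0 in P7KO against WT and 0 in day 9 against day 0. Upper quartile scaling gave 9 calls in DKO-Dppa2 against Dppa2KO. DESeq2 gave 7 in P7KO against WT and 0 in day 9 against day 0, where no filter gave 2. With WT 3 and 4 alone there were 25 calls in P7OE, 16 in P7KO and 18 in DuxKO against WT, and with WT 5 and 6 alone 0 in P7KO and 11 in DuxKO. Shares of all tested genes were not counted for these alternatives. Without the chromosome 8 genes, an alternative chosen after seeing the data, P7KO against WT had 1 call. In DKO-Dppa2 against Dppa2KO only Bysl, of the 4 genes called higher, lies on another chromosome. The cause of these shifts was not tested.

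Same-numbered libraries did not deviate together: correlations of their deviations ran from -0.37 to 0.17 over 15 pairs of groups in the genotype table, -0.05 to 0.10 over 4 in the Pramel7 table and -0.21 to 0.11 over 10 in the time course. A replicate block gave 0 calls in Ctbp-Dux TKO against CtbpDKO, 0 in day 12 against day 9 and, with WT and DuxKO replicates 3 and 4 only, 21 in DuxKO against WT of the Pramel7 table. The share of all tested genes called with a replicate block was not counted.

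Medians relative to each chromosome's median were 0.08 in DuxKO against WT of the genotype table, -0.03 in Ctbp-Dux TKO against CtbpDKO, 0.08 in Ctbp-Dux TKO against DuxKO, -0.13 and 0.00 in DKO-Dppa2 against CtbpDKO and Dppa2KO, -0.12 and -0.16 in the interactions with Dux and Dppa2, -0.25 in P7OE against WT and -0.16 in DuxKO-P7OE against DuxKO. With upper quartile scaling they were 0.02 in Dppa2KO against WT, -0.06 and -0.05 in Ctbp-Dux TKO against CtbpDKO and DuxKO, -0.03 in DKO-Dppa2 against Dppa2KO, -0.20 and -0.16 in the interactions and -0.04 in P7KO against WT.

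Leaving out 1 library at a time gave 5 to 11 calls in CtbpDKO against WT, 3 to 5 in DuxKO against WT (genotype table), 1 to 5 in Dppa2KO against WT, 0 to 2 and 6 to 12 in Ctbp-Dux TKO against CtbpDKO and DuxKO, 0 to 8 and 7 to 11 in DKO-Dppa2 against CtbpDKO and Dppa2KO, 3 to 11 and 2 to 10 in the interactions with Dux and Dppa2, 3 to 17 in P7OE against WT, 4 to 8 in DuxKO-P7OE against DuxKO, 0 to 4 in P7KO against WT, 1 to 8 in DuxKO against WT (Pramel7 table), 0 to 3 in the Pramel7 and Dux interaction, 0 to 1 in day 18 against day 12, and 0 in the other 5 time comparisons. An arm left with 1 library was assumed to vary like the other groups.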

Other observations

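The 12 genes that host small nucleolar RNAs, whose introns supply the guides of the snoRNPs, were counted beside the share of all tested genes called. In DKO-Dppa2 against Dppa2KO 8 of 12 were called higher (against 15.2% of all tested genes) and 0 lower (15.2%), with a median log2 change of 0.61. In the Ctbp and Dppa2 interaction 6 were called higher (against 3.23%) and 0 lower (5%), with a median of 0.92. In P7OE against WT 0 were called higher (against 11%) and 4 lower (8.9%), with a median of -0.42, and in DuxKO-P7OE against DuxKO 1 higher (11.6%) and 6 lower (9.83%), with a median of -0.45. Of 15 targets of p53, the factor that responds to disturbed ribosome assembly among other signals, 7 were called higher (against 3.6% of all tested genes) and 0 lower (3.73%) in day 9 against day 0, with a median of 0.44, and 0 higher (1.87%) and 8 lower (1.97%) in day 12 against day 9, with a median of -0.55. The P7OE counts were made against all 4 WT libraries and not with each WT pair.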
